A study of Homo sapiens with 8 samples.

Results

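The proteasome is the barrel-shaped protease that degrades ubiquitin-tagged proteins, and this account follows the transcripts of its subunits in PC3, a widely used human line derived from prostate cancer. Members were taken by name, as every protein-coding gene of the deposited table called PSMA, PSMB, PSMC, PSMD or PSME with a number, which gave 43 of 58735 genes. RNA was sequenced in 8 libraries, 4 labelled siCtrl (genotype given as WT) and 4 labelled siPRMT7 (genotype given as PRMT7 knockdown). Per the labels, all were PC3 cells transfected by lipofection with synthetic RNA 48 h before harvest. In the library names, sh stands where the titles have si. PRMT7 is an arginine methyltransferase, and the series title ties it to the cell cycle and to prostate cancer.

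Levels are given as FPKM, the fragments of a gene scaled by its length and by the size of the library. Fragments rebuilt from these values and summed over genes numbered 14526030 to 15724862 per library. The library sizes behind the FPKM values were not equal to these sums and ran from 14507136 to 15992234. PRMT7 itself had 4.86 to 5.25 FPKM in the siCtrl libraries and 4.31 to 5.01 FPKM in the siPRMT7 libraries, and this difference did not pass the test over all genes (limma, log2 difference -0.10, adjusted p = 0.428). The group names are therefore used as labels. The epithelial genes KRT8, KRT18 and EPCAM had means of 60.8, 52.1 and 7.46 FPKM, and KLK3 and the T-cell gene CD3E were at 0 in all libraries. CDH1 had 0.454 FPKM, COL1A1 6.76 and PECAM1 3.26 FPKM, and COL1A2 and PTPRC were under 0.2 FPKM in every library. The labels do not say whether replicates came from separate cultures, so p-values cover the spread between these libraries alone. With bulk RNA, fewer cells expressing a gene and less RNA per cell cannot be told apart.

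As background, the core particle is a stack of rings. The outer rings are built of alpha subunits (PSMA) and the inner ones of beta subunits (PSMB), of which PSMB5, PSMB6 and PSMB7 carry the active sites. Interferon can induce PSMB8, PSMB9 and PSMB10, which take the places of PSMB5, PSMB6 and PSMB7 in newly built particles and form the immunoproteasome, whose products feed antigen presentation by HLA class I. PSME1 and PSME2 form the activator PA28 alpha-beta, also interferon-inducible. The PSMC genes and most PSMD genes encode the regulatory cap that recognises, unfolds and admits ubiquitinated proteins. PSMD5, PSMD9 and PSMD10 encode assembly chaperones of the cap's base.

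The promoters of the 5 interferon-inducible members are shown because the induction known for them acts through such regions. RefSeq windows on GRCh38.p14, from 250 bases before to 50 bases after an annotated start site, were given for 38 of the 43 members. They were searched on both strands for the core of the interferon-stimulated response element (GAAA, any 2 bases and GAAA again) and the gamma-activated site TTCNNNGAA. One window of each of the 5 inducible members is shown in transcript direction, with matches to either motif in capitals. PSMB8 had another window, at chr6:32844630-32844929, which matched neither motif and is not shown. A gene was counted when any of its windows held a match.
PSMB8 (chr6:32843998-32844297, minus strand): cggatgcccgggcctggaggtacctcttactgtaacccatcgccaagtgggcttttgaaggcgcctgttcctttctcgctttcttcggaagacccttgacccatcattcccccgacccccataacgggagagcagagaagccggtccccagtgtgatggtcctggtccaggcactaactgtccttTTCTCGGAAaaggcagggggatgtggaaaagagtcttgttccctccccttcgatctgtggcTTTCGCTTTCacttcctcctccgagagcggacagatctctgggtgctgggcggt
PSMB10 (chr16:67936801-67937100, minus strand): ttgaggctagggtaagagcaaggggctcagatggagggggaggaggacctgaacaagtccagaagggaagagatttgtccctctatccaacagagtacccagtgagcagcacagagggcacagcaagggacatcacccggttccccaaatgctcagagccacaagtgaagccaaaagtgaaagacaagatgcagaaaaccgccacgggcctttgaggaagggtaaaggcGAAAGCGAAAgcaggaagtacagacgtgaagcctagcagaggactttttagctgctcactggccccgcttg
PSME1 (chr14:24135944-24136243, plus strand): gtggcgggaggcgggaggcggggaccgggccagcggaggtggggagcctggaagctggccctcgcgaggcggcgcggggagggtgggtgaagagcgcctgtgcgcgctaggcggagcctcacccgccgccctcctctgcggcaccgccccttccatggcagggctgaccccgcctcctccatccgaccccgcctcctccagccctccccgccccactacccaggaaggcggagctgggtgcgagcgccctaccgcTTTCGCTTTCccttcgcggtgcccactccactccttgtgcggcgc
PSME2 (chr14:24146561-24146860, minus strand): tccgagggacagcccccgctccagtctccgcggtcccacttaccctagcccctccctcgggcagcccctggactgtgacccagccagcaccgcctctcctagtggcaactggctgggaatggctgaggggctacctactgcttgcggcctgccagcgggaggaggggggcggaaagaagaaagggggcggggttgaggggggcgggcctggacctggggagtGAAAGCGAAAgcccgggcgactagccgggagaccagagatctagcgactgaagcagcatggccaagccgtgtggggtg
PSMB9 (chr6:32853942-32854241, plus strand): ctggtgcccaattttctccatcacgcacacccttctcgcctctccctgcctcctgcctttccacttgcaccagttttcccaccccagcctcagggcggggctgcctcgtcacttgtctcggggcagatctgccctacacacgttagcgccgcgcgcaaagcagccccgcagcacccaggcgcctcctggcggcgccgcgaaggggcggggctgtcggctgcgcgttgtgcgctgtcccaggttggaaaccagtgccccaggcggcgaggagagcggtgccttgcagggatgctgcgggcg

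In 4 of these 5 genes the window shown held the response element core, with the same letters each time. PSMB10 and PSME2 carried GAAAGCGAAA on the strand shown, beginning at position -21 and -28 relative to the start site. PSMB8 and PSME1 carried its reverse complement TTTCGCTTTC, beginning at -4 and 5. These letters were read from the members' own matches. The general core was found for 348 of 9095 genes that were tested and had a window (3.83%), and the exact letters GAAAGCGAAA for 24 of them (0.264%). Among the other members PSMA4 and PSMB4 held the general core, and none but the 4 held the exact letters. PSMB8 also had a gamma-activated site match at -65, a motif held by 8 of the 38 members and by 8.36% of tested genes. It was the only one of the 5 inducible members with this motif, and its constitutive partner PSMB5 had 2 matches in one window. The window of PSMB9 matched neither motif, which says only that these letters are not within it. TGACNNNGC, the core of the antioxidant response element bound by NFE2L1 and NFE2L2, was found in 13 of the 38 members and in 19.2% of tested genes. CCAAT was found in 19 of the 38 and in 43.6%. These matches describe letters, not bound sites.

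Of the 43 members, 39 had at least 1 FPKM in at least 4 libraries and were tested within a fit of all 13436 such genes. None passed limma's adjusted p of 0.05, against 0.0149% of all genes tested (2 genes). At an unadjusted p under 0.05 there were 7 members higher in the siPRMT7 libraries (PSMB9, PSMB8, PSMB6, PSMA7, PSME1, PSMB4 and PSMD4) and 1 lower (PSMD1), where 7.67% and 5.49% of all genes did so. Voom on rebuilt fragments called 0 members and had the same counts of 7 and 1. The group mean was higher in 30 of 39 members, against 49.5% of all genes, and the median log2 difference was 0.06 for the members and -0.00154 for all genes. Single libraries moved the count of 7. It was 15 when siPRMT7 replicate 1 was left out, 4 when siPRMT7 replicate 2 or 4 was, 3 when siCtrl replicate 2 or 4 was, and 2 when siCtrl replicate 1 or siPRMT7 replicate 3 was. The count of 1 was 0 without siCtrl replicate 4 and 2 without siPRMT7 replicate 1. Of these reduced sets, the share of all genes is given only for the one without siPRMT7 replicate 2. The other counts are therefore not read as particular to the members.

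**Figure D1:**
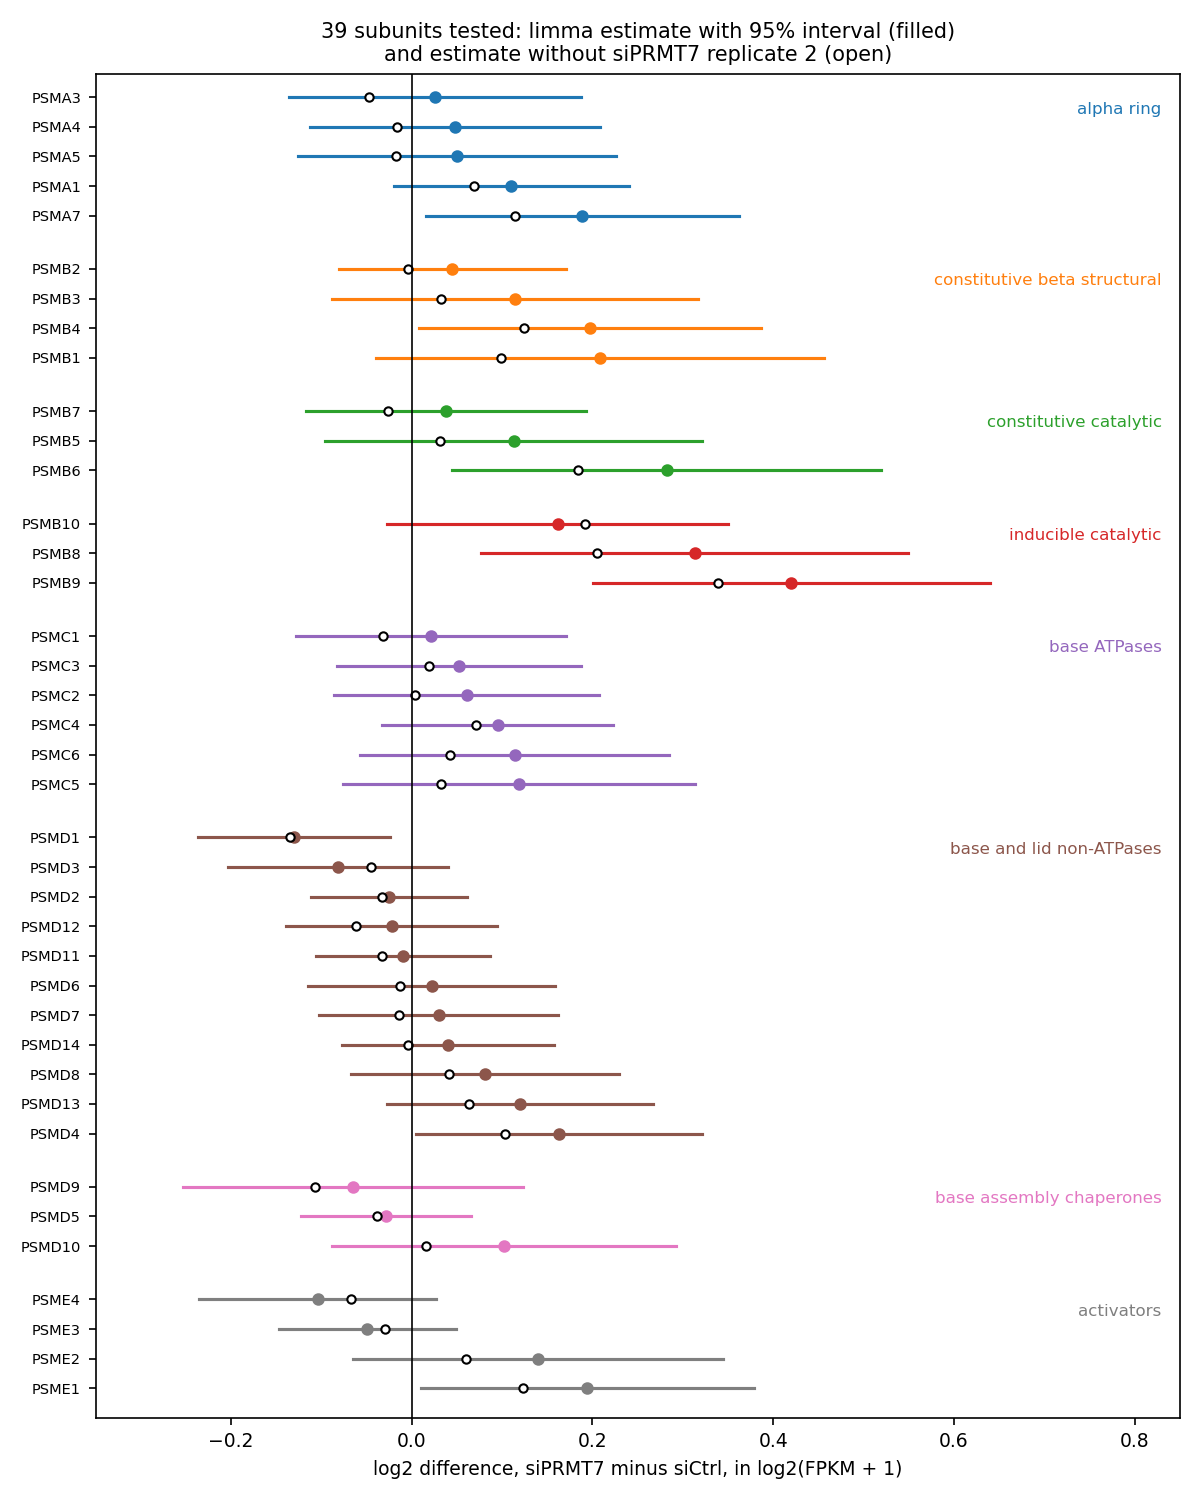
Log2 difference between siPRMT7 and siCtrl libraries for the 39 tested subunits, by role, on the log2(FPKM + 1) scale. Filled points are limma estimates with 95% intervals and open points leave out siPRMT7 replicate 2; PSMB9 lies farthest to the right (0.42), PSMD1 farthest to the left (-0.13), and most open points lie nearer 0.

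The library siPRMT7 replicate 2 weighed on most of the family, and it also stood apart over all genes tested. Its limma library weight was 0.238, against 0.704 to 1.59 in the other libraries. PSMD3, PSME3 and PSME4 had their lowest levels there, at 22.7, 21.2 and 15.4 FPKM. In siPRMT7 replicate 2 the level was the highest of the 8 libraries for 31 of 39 members, against 29.6% of all genes tested. The median member lay 0.232 above its siCtrl mean there, on the log2(FPKM + 1) scale, and -0.0463, 0.0751 and 0.0415 from it in siPRMT7 replicates 1, 3 and 4. Genes of cytosolic ribosomal proteins, 78 in all, were ordered alike: their mean level differed from the siCtrl mean by -0.0639, 0.351, 0.167 and 0.0358 in siPRMT7 replicates 1 to 4. The part of ribosomal protein level in the members' values was not tested beyond one fit that used it as a covariate. In that fit 15 members were higher (48.9% of all genes) and 24 lower. Their median was -0.01, against -0.0022 for all genes. Without siPRMT7 replicate 2, 21 members were higher (49.7% of all genes) with a median of 0.02, and at an unadjusted p under 0.05 there were 4 higher (7.06% of all genes) and 1 lower (5.92%). In this reduced set the groups did not overlap for 2 members that were higher (5.97% of all genes) and for 1 that was lower (6.56%).

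**Figure D2:**
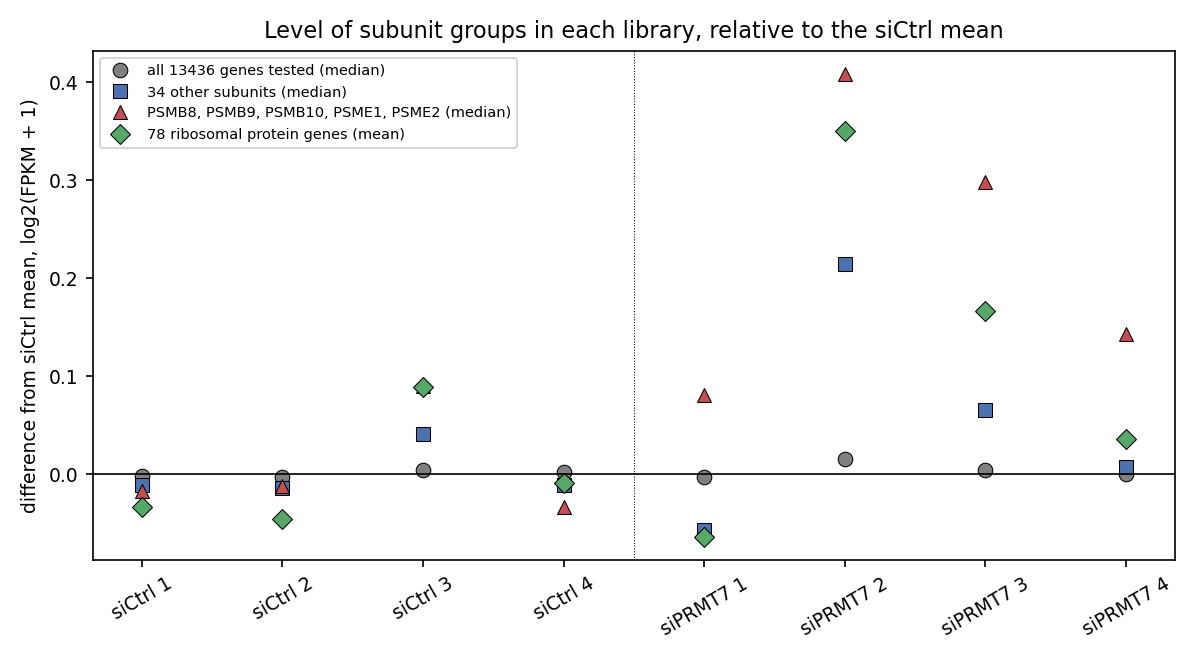
Difference of each library from the siCtrl mean on the log2(FPKM + 1) scale, as the median of all tested genes, of 5 inducible members and of the 34 other members, and as the mean of 78 ribosomal protein genes. The 5 inducible members lie above the other subunits in all 4 siPRMT7 libraries, and siPRMT7 replicate 2 is highest in all 4 series.

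The inducible catalytic subunits were the role group with the highest median, 0.31 over its 3 members. PSMB9 (ENSG00000240065, chromosome 6, 32844136 to 32859585, plus strand), the inducible counterpart of PSMB6, had 3.20, 3.68, 4.06 and 3.14 FPKM in siCtrl replicates 1 to 4. It had 4.84, 6.13, 4.77 and 4.50 FPKM in siPRMT7 replicates 1 to 4. Every siPRMT7 library lay above every siCtrl library, as in 4.14% of all genes tested. The means were 3.52 ± 0.436 and 5.06 ± 0.730 FPKM (SD, n = 4 each), a ratio of 1.44. Its log2 difference was 0.42 (SE 0.0973, limma 95% interval 0.20 to 0.64, adjusted p = 0.189), and 0.34 without siPRMT7 replicate 2.

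PSMB8 (ENSG00000204264, chromosome 6, 32840717 to 32844703, minus strand) is the inducible counterpart of PSMB5. Its levels were 19.98, 18.4, 19.1 and 18.5 FPKM in siCtrl replicates 1 to 4 and 20.2, 30.1, 24.04 and 22.1 FPKM in siPRMT7 replicates 1 to 4. These groups did not overlap either, although siPRMT7 replicate 1 lay just above the highest siCtrl library. With all libraries, the groups did not overlap for 2 of 39 members that were higher (4.14% of all genes tested). They did not overlap for 1 that was lower (4.43%). The means were 19.0 ± 0.722 and 24.1 ± 4.30 FPKM, with a log2 difference of 0.31 (SE 0.104, limma 95% interval 0.08 to 0.55, adjusted p = 0.286). Leaving out siPRMT7 replicate 2 gave 0.20, and the ribosomal protein covariate gave 0.17. PSMB8 shares 618 of its 2997 exonic bases with PSMB8-AS1 on the opposite strand, and reads of the pair cannot be separated unless strand was used in counting, which no source used here states.

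PSMB10 (ENSG00000205220, chromosome 16, 67934502 to 67937087, minus strand), the counterpart of PSMB7, had 3.09, 3.88, 2.99 and 3.61 FPKM in the siCtrl libraries. The siPRMT7 libraries had 3.99, 3.59, 4.38 and 3.66 FPKM, so the groups overlapped. The log2 difference was 0.16 (limma 95% interval -0.03 to 0.35, adjusted p = 0.430), and 0.19 without siPRMT7 replicate 2, where PSMB10, unlike most members, was the lowest of its group. Only 84 to 122 fragments lay behind each value, a counting error of up to 10.9%.

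The constitutive catalytic subunits were far more abundant. PSMB5 had 70.1, 70.1, 77.2 and 71.8 FPKM in the siCtrl libraries and 65.7, 92.8, 79.3 and 77.4 FPKM in the siPRMT7 libraries, and the groups overlapped (log2 difference 0.11, limma 95% interval -0.10 to 0.32, adjusted p = 0.590). The difference was 0.031 without siPRMT7 replicate 2 and 0.20 without siPRMT7 replicate 1. PSMB6 had 49.5, 46.3, 53.6 and 50.1 FPKM and then 52.1, 74.9, 63.5 and 55.04 FPKM. Only siPRMT7 replicate 1 fell within the siCtrl range. Its log2 difference of 0.28 (0.04 to 0.52, limma adjusted p = 0.315) lay between those of PSMB8 and PSMB10, and was 0.18 without siPRMT7 replicate 2. PSMB7 had 76.9, 78.6, 79.9 and 74.1 FPKM and then 71.6, 90.8, 79.1 and 77.4 FPKM. It differed by 0.04 (-0.12 to 0.19, limma adjusted p = 0.819), a value that was -0.026 without siPRMT7 replicate 2.

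**Figure D3:**
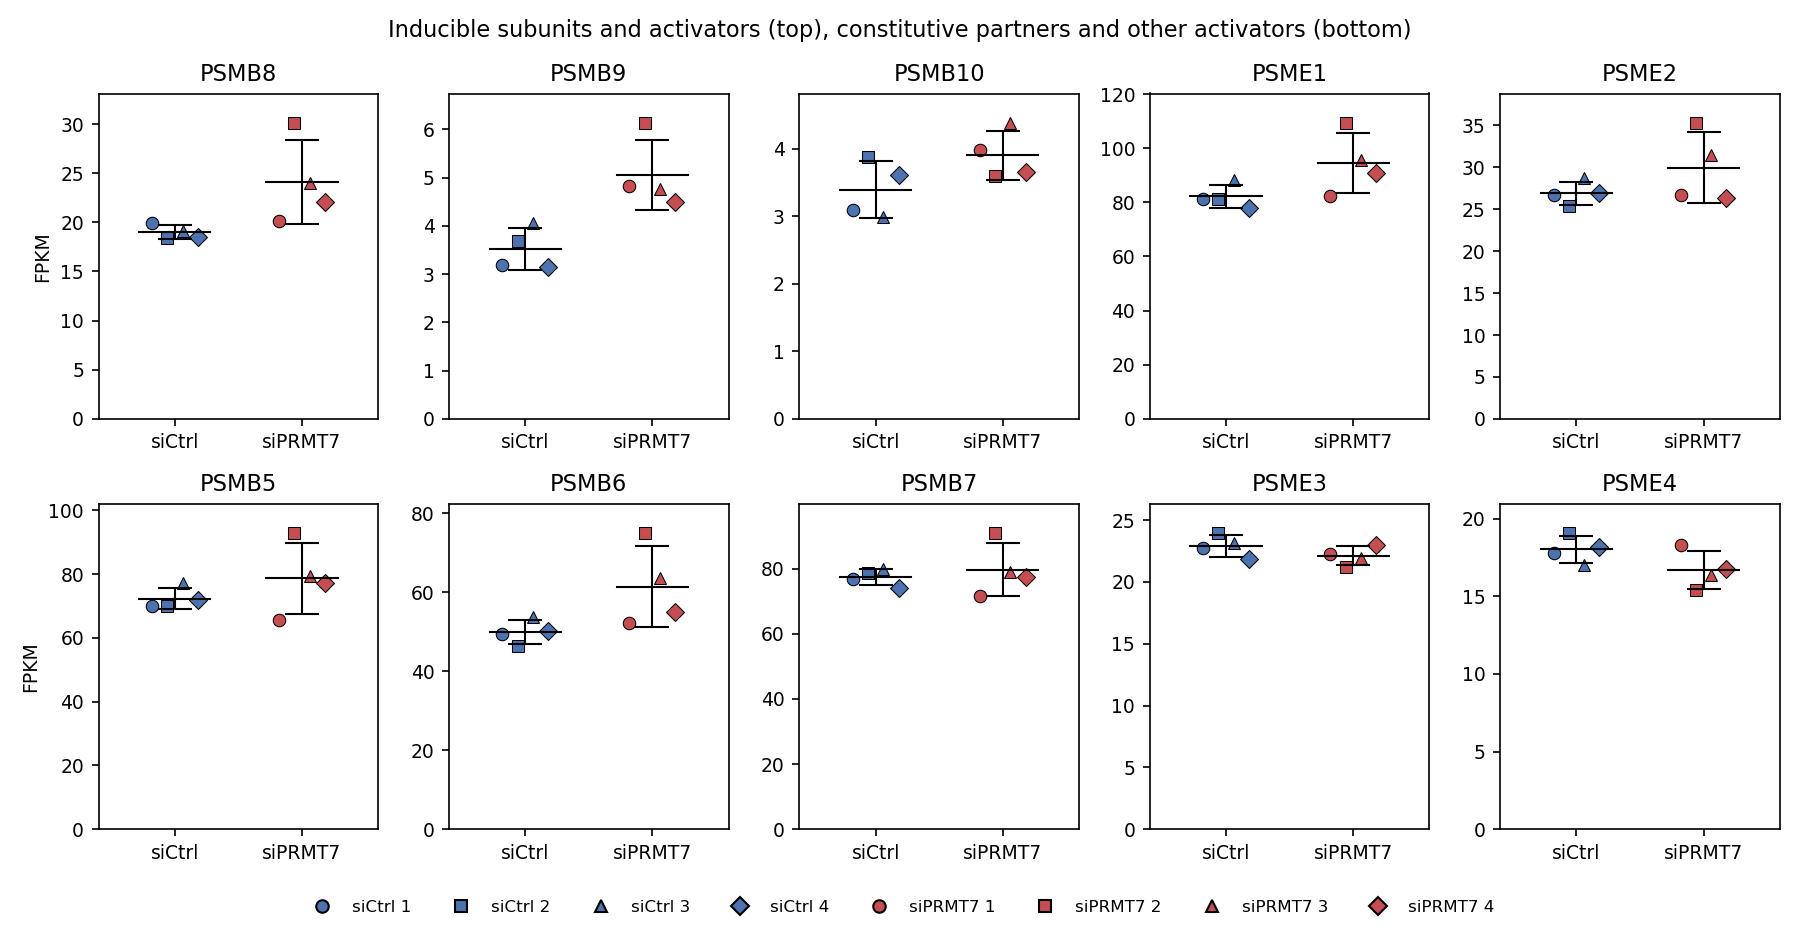
FPKM of PSMB8, PSMB9, PSMB10, PSME1 and PSME2 (top row) and of PSMB5, PSMB6, PSMB7, PSME3 and PSME4 (bottom row) in each library; symbols mark replicate numbers, horizontal lines the group means and error bars the SD (n = 4). The groups are apart in PSMB8 and PSMB9, as in 4.14% of all genes tested, and overlap in the other 8 genes shown.

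The design pairs each inducible subunit with the one it replaces, so their ratio within a library asks whether the 2 differ by unlike amounts. PSMB8 stood at 28.5, 26.2, 24.8 and 25.8% of the FPKM of PSMB5 in siCtrl replicates 1 to 4, and at 30.7, 32.4, 30.3 and 28.6% in the siPRMT7 replicates. All 4 siPRMT7 libraries lay above the siCtrl libraries, the closest pair being 28.6 and 28.5%. That gap is smaller than the counting error of PSMB8, which was up to 3.52% of its level. The mean went from 26.3 ± 1.57 to 30.5 ± 1.58% (SD, n = 4 each), a ratio of 1.16 (two-sided exact permutation p = 0.0286, the smallest that 70 assignments allow). Adjusted over the 3 ratios, the exact p was 0.0857, so none of the 3 passed.

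PSMB9 stood at 6.27 to 7.96% of PSMB6 in the siCtrl libraries and at 7.51 to 9.27% in the siPRMT7 libraries, with 3 of 4 above every siCtrl library (ratio 1.18, exact permutation p = 0.0857, adjusted 0.129). PSMB10 stood at 3.75 to 4.94% of PSMB7 and at 3.96 to 5.58%, with 2 of 4 above (ratio 1.12, exact permutation p = 0.314). Without siPRMT7 replicate 2 the log2 differences of the 3 ratios were 0.18, 0.24 and 0.27, against 0.21, 0.23 and 0.17 with all libraries. The ratio of PSMB10 to PSMB7 also moved the other way. Leaving out siCtrl replicate 3 gave 0.095, and leaving out siPRMT7 replicate 1 or 3 gave 0.11 each time.

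**Figure D4:**
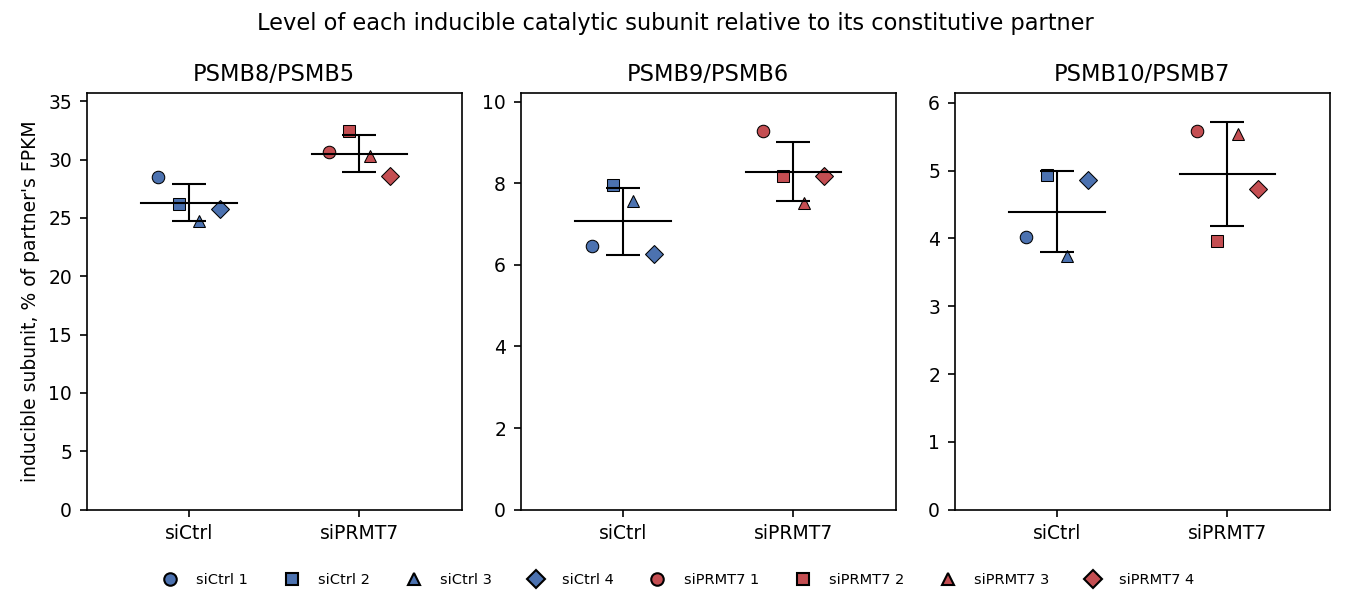
FPKM of each inducible catalytic subunit as a percentage of its constitutive partner in each library, with group means and SD (n = 4). PSMB8 reaches 24.8 to 28.5% of PSMB5 in siCtrl and 28.6 to 32.4% in siPRMT7 libraries; the groups overlap in the other 2 panels.

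None of the 4 activator genes passed the test. PSME1, the alpha subunit of PA28, had 81.1, 81.4, 88.1 and 78.1 FPKM in the siCtrl libraries and 82.5, 109, 95.7 and 90.7 FPKM in the siPRMT7 libraries. Of the latter, 3 lay above every siCtrl library (log2 difference 0.19, limma 95% interval 0.01 to 0.38, adjusted p = 0.360, and 0.12 without siPRMT7 replicate 2). PSME2, the beta subunit, had 26.7, 25.3, 28.7 and 26.9 FPKM and then 26.6, 35.3, 31.5 and 26.4 FPKM, with 2 of 4 above. Its log2 difference was 0.14 (limma adjusted p = 0.509). Leaving out siPRMT7 replicate 2 gave 0.06, and the ribosomal protein covariate gave 0.01. The pair lies within one stretch of chromosome 14, PSME1 at 24136158 to 24138967 on the plus strand and PSME2 at 24143362 to 24147570 on the minus strand.

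The other activators were lower on average. PSME3, the nuclear activator PA28 gamma, had 21.8 to 23.9 FPKM in siCtrl and 21.2 to 23.01 FPKM in siPRMT7 libraries (log2 difference -0.05, limma adjusted p = 0.616). PSME4, the activator PA200, had 17.8, 19.1, 17.0 and 18.2 FPKM and then 18.3, 15.4, 16.4 and 16.8 FPKM, with 3 of 4 siPRMT7 libraries below every siCtrl library (log2 difference -0.10, limma adjusted p = 0.458). Without siPRMT7 replicate 2 the differences of PSME3 and PSME4 were -0.030 and -0.068.

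In the alpha ring, all 5 members tested had higher siPRMT7 means, by 0.03 to 0.19, and in all 5 siPRMT7 replicate 2 was the highest library. PSMA7 was the most abundant member of the family, with 170, 169.9, 179 and 173 FPKM in siCtrl and 176, 231, 198 and 189 FPKM in siPRMT7 libraries (log2 difference 0.19, limma adjusted p = 0.351, and 3 of 4 above every siCtrl library). PSMA1 differed by 0.11 (limma adjusted p = 0.435). Without siPRMT7 replicate 2, 2 of the 5 were higher and 3 lower, and PSMA7 differed by 0.11 and PSMA1 by 0.069.

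Subunits of 1 particle are needed in equal numbers, but per length their transcripts were not. Mean FPKM over all libraries ran from 8.83 for PSMA1 to 186 for PSMA7 among the alpha subunits tested. PSMA2 had 0.631 to 0.995 FPKM and PSMA6 0.547 to 0.900 FPKM, so both missed the filter. By GENCODE 29, 97.1% of the coding bases of PSMA2, 88.6% of PSMA1 and 70.4% of PSMA6 also belong to another gene on the same strand. For PSMD9 and PSMB10 the share was 58.7 and 58.3%, and for every other member it was under 1%. The same-strand genes overlapping PSMB10, PSMA6, PSMD9 and PSMA1 over the most bases had mean levels of 0.235, 0.0909, 0.0225 and 0 FPKM. With the tissue-restricted PSMA8 and PSMB11 left aside, these 5 members include the lowest of the alpha ring, of the chaperones and of the catalytic subunits. No source used here states how fragments shared by 2 genes were treated, and the part of such sharing in these levels was not tested. The 32 annotated pseudogenes named after members had 6.85 FPKM in all in siCtrl and 5.83 FPKM in siPRMT7 libraries, against 1520 and 1631 FPKM for the members.

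The structural beta subunits PSMB1 to PSMB4, which carry no active site, were each higher on average, by 0.04 to 0.21. PSMB4 had 59.3 to 65.3 FPKM in siCtrl and 62.7 to 85.02 FPKM in siPRMT7 libraries (log2 difference 0.20, limma adjusted p = 0.365), and PSMB1 34.3 to 37.6 and 34.4 to 52.8 FPKM (0.21, limma adjusted p = 0.438). In both, 3 of 4 siPRMT7 libraries lay above all siCtrl libraries and replicate 1 lay within them. Leaving out siPRMT7 replicate 2 gave 0.12 for PSMB4, 0.099 for PSMB1 and -0.0046 for PSMB2, and took the median of the 4 from 0.16 to 0.065.

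In the cap, the 6 ATPases PSMC1 to PSMC6, which unfold the substrate, were higher by 0.02 to 0.12, with limma adjusted p from 0.480 to 0.898. PSMC4 (log2 difference 0.09) and PSMC6 (0.11) had the smallest p of them. Without siPRMT7 replicate 2 PSMC6 differed by 0.042 and PSMC1 by -0.032, and the median of the 6 was 0.025 in place of 0.078. The 11 other cap subunits were divided, 6 higher and 5 lower, with a median of 0.02. PSMD4, a ubiquitin receptor, had 41.7 to 44.2 FPKM in siCtrl and 42.1 to 54.0 FPKM in siPRMT7 libraries (0.16, limma adjusted p = 0.370, and 0.10 without siPRMT7 replicate 2).

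PSMD1, the large scaffold subunit of the cap's base, was the one member whose siPRMT7 libraries all lay below the siCtrl libraries, as in 4.43% of all genes tested. It had 33.8, 35.7, 35.6 and 38.8 FPKM in siCtrl replicates 1 to 4 and 33.3, 33.0, 32.02 and 32.5 FPKM in siPRMT7 replicates 1 to 4. The log2 difference was -0.13 (SE 0.0468, limma 95% interval -0.24 to -0.02, adjusted p = 0.303), and -0.13 without siPRMT7 replicate 2. PSMD2, its partner scaffold and the second most abundant member, had 141 to 148 FPKM in siPRMT7 and 146 to 152 FPKM in siCtrl libraries (-0.03, limma adjusted p = 0.775). Of the assembly chaperones of the base, PSMD10 had a log2 difference of 0.10, PSMD5 of -0.03 and PSMD9 of -0.07, with limma adjusted p from 0.592 to 0.768. Without siPRMT7 replicate 2, PSMD10 differed by 0.016 and PSMD9 by -0.11.

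The tissue-restricted core subunits were at or near 0. PSMA8, a testis alpha subunit, had 0 fragments in all 8 libraries, which allows up to 0.0990 to 0.109 FPKM per library (3 fragments, counting error only). PSMB11, the thymus beta subunit, had 0 to 5 fragments.

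Partners of the proteasome showed no call either. Of 13 assembly factors and cap cofactors, 0 passed limma's adjusted p (0.0149% of all genes tested). Of these, 10 were higher (49.5% of all genes) and 3 lower, with a median of 0.04. Without siPRMT7 replicate 2, 7 were higher (49.7% of all genes) and 6 lower, with a median of 0.0017. SEM1, a small lid subunit named outside the PSM series, had 3.27 ± 0.244 and 4.04 ± 0.621 FPKM (log2 difference 0.23, limma adjusted p = 0.341). The ubiquitin ligase UBE3C, which binds the proteasome, had 17.3 to 18.8 FPKM in siCtrl and 14.5 to 16.9 FPKM in siPRMT7 libraries. Its groups did not overlap, as in 4.43% of all genes tested with siPRMT7 lower (log2 difference -0.20, limma adjusted p = 0.215).

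Of 7 genes of transcription control, 0 passed (0.0149% of all genes tested), 5 were higher (49.5% of all genes) and 2 lower, with a median of 0.05. Without siPRMT7 replicate 2 the split was the same and the median was 0.011. NFE2L1, the factor that restores proteasome gene expression when proteasome activity is short, had 90.3 to 97.96 FPKM in siCtrl libraries. Its siPRMT7 values were 95.9, 70.6, 93.3 and 94.9 FPKM, so the low value was that of replicate 2, where most subunits were highest. Whether the levels of NFE2L1 and of the subunits are linked was not tested. The small Maf genes MAFF and MAFG, whose products pair with such factors, had means of 19.3 ± 0.592 and 22.7 ± 1.39 FPKM and of 19.1 ± 0.549 and 21.7 ± 0.632 FPKM. Both had no overlap between groups, as in 4.14% of all genes tested with siPRMT7 higher, and a limma adjusted p of 0.189. They were named as the 2 genes of this list with the smallest p.

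Among 13 genes of ubiquitin supply and delivery 0 passed (0.0149% of all genes tested), with 7 higher (49.5% of all genes) and 6 lower. Their median log2 difference was 0.0061. At an unadjusted p under 0.05 there were 2 higher and 0 lower (7.67% and 5.49% of all genes tested), and for 2 the siPRMT7 libraries lay above all siCtrl libraries (4.14% of all genes).

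Genes that act with the immunoproteasome were mostly higher. Of 15 regulators and antigen processing genes, 12 were higher (49.5% of all genes tested) and 3 lower, with a median of 0.19. Of the 15, 0 passed limma's adjusted p (0.0149% of all genes), and 10 were higher at an unadjusted p under 0.05 (7.67%). In 10 the siPRMT7 libraries lay above all siCtrl libraries (4.14% of all genes). The list was chosen with earlier results of these data known, so these counts are not an independent test. The 3 lower genes were TAP2 (-0.014), ERAP1 (-0.067) and IRF9 (-0.0044), with limma adjusted p from 0.527 to 0.987. TAP1, which together with TAP2 pumps proteasome products into the endoplasmic reticulum, is transcribed divergently from PSMB9. The gene TAP1 had 27.0, 25.7, 27.7 and 26.9 FPKM in siCtrl and 31.5, 31.9, 31.9 and 32.7 FPKM in siPRMT7 libraries. Its log2 difference was 0.25 (limma adjusted p = 0.101). In TAP1, unlike PSMB8 and PSMB9, siPRMT7 replicate 2 did not stand above the rest of its group.

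HLA-B, a class I chain that presents the peptides, had 69.4 ± 2.56 and 95.5 ± 11.8 FPKM (0.45, limma adjusted p = 0.125). IRF1, a transcription factor known to act on PSMB8, PSMB9 and PSMB10, had 5.56 ± 0.156 and 6.81 ± 0.511 FPKM (0.25, limma adjusted p = 0.182). Its groups did not overlap, as in 4.14% of all genes tested with siPRMT7 higher. NLRC5, an activator of class I genes, had 2.08 to 2.31 and 2.20 to 3.13 FPKM (0.18, limma adjusted p = 0.388). Over the alternatives the adjusted p of TAP1 and of HLA-B each ran from 0.0326 to 0.339. TAP1 passed with library weights (0.0326), and HLA-B with library weights (0.0326), voom (0.0499) and the ribosomal protein covariate (0.0408).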

How the data were processed

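Poly(A)-selected RNA of 4 siCtrl and 4 siPRMT7 libraries was analysed. The authors deposited FPKM values per gene, made with featureCounts 1.6.3, HISAT2 2.1.0 and cutadapt 2.5, going by the submitters' processing notes. A mouse build is listed there too, but all 58735 gene IDs are human and their positions match GENCODE 29 on GRCh38. FPKM multiplied by gene length gave whole fragments for 100% of values above 0 (tolerance 0.01 fragments). Values were analysed as log2(FPKM + 1), which understates differences of low genes, with limma 3.58.1 in R 4.3.3 (variance trend, two-sided). Genes reaching 1 FPKM in 4 or more libraries entered, with Benjamini-Hochberg adjustment over all 13436 and a threshold of 0.05. Ratios of subunits used exact permutation tests. The fit was tested on simulated data. Members and lists were chosen with earlier results of these data known. Any member could be named; given in full were PSMB5 to PSMB10, the PSME genes, the 2 members of each role group and list with the smallest p, and IRF1, NLRC5, TAP1, NFE2L1 and PRMT7. Some genes that this rule names are not reported here, although counts over lists include them. Alternatives were other pseudocounts, filters, scalings, variance models, weights, a replicate block, a ribosomal protein covariate, voom on rebuilt fragments, removal of the trend on gene length, protein-coding genes alone and leaving out each library. Promoter sequences are from RefSeq (GRCh38.p14), and coordinates of genes are the deposited ones on GRCh38.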

Additional observations from a re-analysis of the deposited data

Results flagged for a closer look

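In each group of 4 libraries, a value was singled out when its gap to the nearest other value took up more of the group's range than Dixon's 95% critical value allows. This was done for 112 groups of values, of all members, the other named genes and the 3 ratios, and 5 were singled out. Chance alone singles out about 1 group in 20, so no pattern is read from their number.

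NFE2L1 had 70.6 FPKM in siPRMT7 replicate 2, and 93.3 to 95.9 FPKM in the other siPRMT7 libraries. PSMC3 had 56.5 FPKM in siCtrl replicate 2, below the 60.6 to 61.2 FPKM of the other siCtrl libraries. PSMB4 had 59.3 FPKM in siCtrl replicate 4, below 64.3 to 65.3 FPKM in the others. PSMD4 had 44.2 FPKM in siCtrl replicate 3, above 41.7 to 42.0 FPKM. PSMB11 was listed at 0.163 FPKM in siCtrl replicate 4 and at 0 in the other siCtrl libraries, a difference of 5 fragments.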

How the results depend on the processing

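No member was called by limma under any of the 22 alternatives. The number of genes called over all genes was 2 as reported, 1 with a pseudocount of 0.1, with FPKM at least 5 or with quantile normalization, 5 with no filter, 11 with protein-coding genes alone, 12 with voom, 27 with the ribosomal protein covariate and 58 with library weights. It ran from 0 to 4 without 1 library. Members higher at an unadjusted p under 0.05 numbered 7 as reported, 4 without a variance trend, and 2 to 15 without 1 library. For this count, the only alternative with the share of all genes given is the one without siPRMT7 replicate 2. The ribosomal protein covariate left 15 members higher in place of 30 (48.9% of all genes with it). Of 30 genes named by rule, 27 kept their direction under every alternative that tested them. PSMB5 turned to -0.019 with the ribosomal protein covariate. PSMB7 turned to -0.051 with that covariate, -0.036 with quantile normalization, -0.033 with the length trend removed, -0.0029 with one total per library and, over the libraries left out, ran from -0.026 (without siPRMT7 replicate 2) to 0.087. NFE2L1 turned to 0.010 with the covariate and, over the libraries left out, ran from -0.14 to 0.0045 (without siPRMT7 replicate 2). Bringing each library to one total moved the median of all genes to -0.04 and of the members to 0.02.

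Over the libraries left out, the log2 difference of the ratio of PSMB8 to PSMB5 ran from 0.18 to 0.25, with an exact permutation p of 0.0286 to 0.0571. With all libraries and a pseudocount of 1 it was 0.20 (exact permutation p = 0.0571, adjusted 0.171). With a replicate block the exact permutation p was 0.125, the smallest that this block allows. Deviations of same-numbered libraries correlated at -0.031, -0.013, 0.045 and 0.061 for replicates 1 to 4. The libraries siPRMT7 replicates 1 and 2 correlated best with siCtrl replicates 4 and 3 (0.079 and 0.131). For siPRMT7 replicates 3 and 4 the best was the siCtrl library of the same number. Correlations this small cannot settle whether replicate numbers paired the libraries. With a replicate block 0 genes were called, and 7 members were higher at an unadjusted p under 0.05. FPKM at least 5 left out PSMB9 and PSMB10. PSMB9 rests on 140 to 283 fragments per library and PSMB10 on 84 to 122, which limits what their values can resolve.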
